A study of Arabidopsis thaliana with 4 samples.

Results

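Berberine bridge enzyme-like genes encode oxidases that carry a covalently bound flavin. The 10 genes described here were taken by locus identifier from the 33602 genes counted in each library, and they belong to a family of 27 in the reference annotation. They were chosen by locus with the counts of residuum and secession cells in these same libraries known. Their levels and fold changes between the groups are therefore given as a description, and nothing is read from a test of them. The other 17 family genes are set beside them. Of the 10 listed genes, AT1G26380, AT1G30700 and AT4G20860 stood far lower in residuum cells than in secession cells, AT5G44400 and AT2G34790 stood higher, and AT4G20830, by far the most abundant, was moderately lower.

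Residuum cells (RECs) remain on the receptacle after floral organs of Arabidopsis thaliana are shed, and secession cells (SECs) are the abscission zone cells that depart with the organ. The data are polyA RNA-seq counts from 2 REC libraries and 2 SEC libraries, and the only comparison the design gives is REC against SEC. Both groups are ebp1 mutants in the Col-0 background, and both carry a nuclear GFP-GUS reporter by whose fluorescence the cells were sorted as protoplasts. The series description names the reporter proQRT2::nlsGFP–GUS, while the genotype labels of the 4 samples number the promoter from QRT2 to QRT5 and leave out ebp1. The sort therefore takes any cell in which the promoter is active. No wild-type library is included, so nothing here shows an effect of the mutation, and the labels do not say that replicates came from separate plants. Age of the plants and stage of the flowers are not given in the labels.

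The family is named after the berberine bridge enzyme of California poppy (Eschscholzia californica), which closes a ring in alkaloid synthesis. Arabidopsis does not make such alkaloids, and those of its enzymes with a known substrate are mostly secreted oxidases of sugars, alcohols and indole compounds. When oxygen takes the electrons, hydrogen peroxide is released. Several members are known for acting on fragments of the cell wall: oxidation of oligogalacturonides, the pectin fragments released by polygalacturonases, lessens their power to elicit defence. RefSeq names only AT2G34790 (MEE23) among the 10 and describes the rest as FAD-binding berberine family proteins, so the roles given below for single genes are background and not results.

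The 250 bases before the annotated start of 4 genes are shown because these genes carry the main contrast: AT1G26380, AT1G30700 and AT4G20860 had the lowest REC to SEC ratios of the fitted listed genes with a mean of 10 CPM or more, and AT5G44400 was the most abundant listed gene that was higher in RECs. The sequences are from RefSeq, build TAIR10.1, written 5′ to 3′ along the gene. Capitals mark TTGAC or its reverse complement GTCAA, the core of the W-box, the element that WRKY transcription factors bind.
AT1G26380, chr1:9128569-9128818, minus strand: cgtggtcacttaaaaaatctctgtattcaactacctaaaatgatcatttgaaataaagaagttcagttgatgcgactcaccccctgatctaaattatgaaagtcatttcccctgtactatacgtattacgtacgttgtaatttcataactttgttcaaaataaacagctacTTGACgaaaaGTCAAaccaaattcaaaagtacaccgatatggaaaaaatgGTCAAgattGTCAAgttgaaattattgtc
AT1G30700, chr1:10892195-10892444, plus strand: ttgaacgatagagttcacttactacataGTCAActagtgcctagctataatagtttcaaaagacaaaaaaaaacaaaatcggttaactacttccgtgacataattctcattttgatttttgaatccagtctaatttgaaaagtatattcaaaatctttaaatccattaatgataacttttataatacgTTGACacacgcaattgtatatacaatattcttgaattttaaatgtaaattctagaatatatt
AT4G20860, chr4:11172372-11172621, plus strand: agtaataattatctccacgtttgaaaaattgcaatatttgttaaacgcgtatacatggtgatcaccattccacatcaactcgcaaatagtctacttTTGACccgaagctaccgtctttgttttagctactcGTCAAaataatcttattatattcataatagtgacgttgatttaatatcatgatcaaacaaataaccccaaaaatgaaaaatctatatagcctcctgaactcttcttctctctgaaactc
AT5G44400, chr5:17888531-17888780, minus strand: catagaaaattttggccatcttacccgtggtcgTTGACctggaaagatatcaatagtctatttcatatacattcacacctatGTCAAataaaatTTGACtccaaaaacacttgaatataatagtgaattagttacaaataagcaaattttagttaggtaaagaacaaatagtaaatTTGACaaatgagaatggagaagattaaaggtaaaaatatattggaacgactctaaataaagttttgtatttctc
TTGAC on either strand stood 4 times before AT1G26380, 2 times before AT1G30700 and AT4G20860, and 4 times before AT5G44400. The first and second of the matches before AT1G26380 form an inverted pair, TTGAC followed by GTCAA. Of the 10 listed genes 9 had TTGAC in this window, all but AT1G30730. Of the other 17 family genes 10 had it, as did 44.9% of 27443 protein-coding genes. TGACG, an element of TGA factors that can overlap TTGAC in its last bases, stood before 3 of the 10 and 5 of the 17, against 18.6% of all genes. CACGTG, the G-box, was found before 0 of the 27, against 6.49% of all genes. AT1G26380, lower in RECs, and AT5G44400, higher in RECs, had the same number of matches. A match is a run of letters and was not tested as a binding site.

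Levels are in CPM, which is the count divided by the library's TMM-scaled total and brought to a common size. Fold changes are REC minus SEC on the log2 scale, and SE is the standard error of the edgeR fit. Counts in genes ran from 12191718 to 16102115 per library. The SEC pair agreed less well than the REC pair: 23.3% of 18384 genes tested differed over 2-fold between the SEC replicates, against 2.82% between the REC replicates. SEC replicate 1 was also lower in long transcripts than SEC replicate 2 (Spearman correlation of transcript length with the log2 ratio −0.518 across genes, against −0.129 in the REC pair), and genes are not independent replicates. The 10 genes lie on chromosomes 1, 2, 4 and 5, and their exons span 1767 to 2200 nucleotides. All 10 abscission zone markers had counts in each group, but not all at even levels. By edgeR IDA, ADPG2 and KNAT1 were called higher in SECs, KNAT6 was called higher in RECs, and 6 were not called. IDA had 0.47 and 0.87 CPM for RECs, with 32.5 and 13.9 CPM for SECs, and its call was lost by limma voom (adjusted p = 0.113). QRT2, whose promoter drove the reporter, had 493 and 568 CPM for RECs, with 459 and 694 CPM for SECs. Markers of nectary and of pollen and tapetum were at or near 0, with a summed level of at most 2.47 CPM in any library, and CRC, SWEET9, FAMA, APL and XCP2 had 0 counts in all 4. Mesophyll markers summed to 3892 and 2842 CPM for RECs, with 2964 and 2234 CPM for SECs, and 3 of the 5 (RBCS2B, CA1 and CAB3) were called higher in RECs by edgeR. Phloem markers, nearly all SUC2, summed to 9.26 and 9.34 CPM for RECs, with 3.32 and 0.642 CPM for SECs. Guard and myrosin cell markers summed to at most 3.20 CPM and xylem markers to at most 2.95 CPM in any library. The part of these other cells in the results below was not tested. In bulk samples fewer cells of a type and less RNA per cell cannot be told apart.

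**Figure D1:**
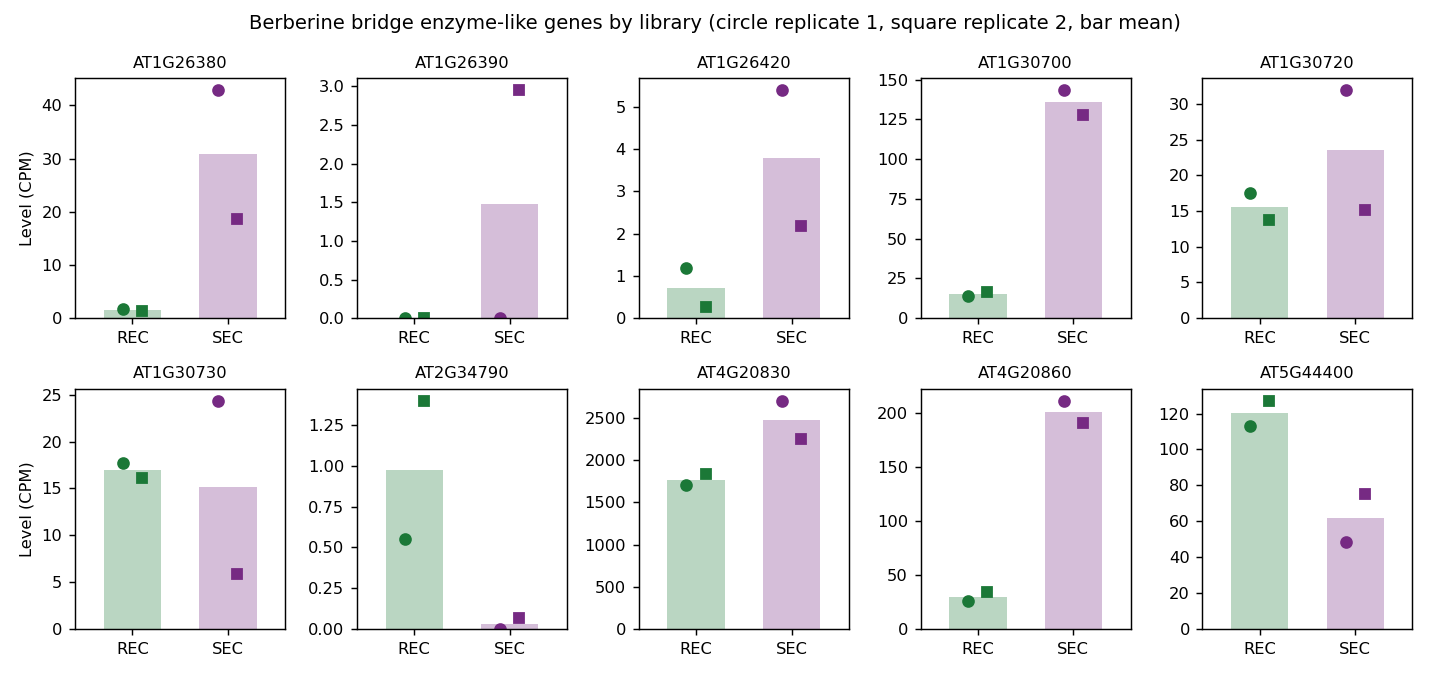
Level of each of the 10 listed genes in CPM, with its own vertical axis from 0, in RECs (left, green) and SECs (right, purple); circles are replicate 1, squares replicate 2 and bars the mean of 2. AT1G30700 had 14.0 and 16.3 CPM for RECs, with 144 and 128 CPM for SECs, while the SEC points of AT1G30730 lie on both sides of the REC points.

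AT4G20830 had the highest level of the family in every library. Known as an oligogalacturonide oxidase (OGOX1), it had 1708 and 1831 CPM for RECs, with 2706 and 2248 CPM for SECs. Both REC libraries lay below both SEC libraries, by a log2 fold change of −0.49 (SE 0.15). This single gene made up 76.6% and 76.9% of the family's summed CPM in RECs and 79.9% and 77.6% in SECs. An opposite-strand gene of RefSeq, AT4G20835, covers 1570 of the 2200 exonic nucleotides of AT4G20830. The library kit does not mark strand, and AT4G20835 was not analysed here, so reads of the opposite strands cannot be told apart. AT4G20860, known as a cellodextrin oxidase (CELLOX1), had 25.8 and 34.2 CPM for RECs, with 211 and 191 CPM for SECs. The groups lay far apart relative to the spread within each, with means of 30.0 ± 5.89 (RECs) and 201 ± 14.7 CPM (SECs) (SD, n = 2 each), and the log2 fold change was −2.74 (SE 0.24), a level 6.70-fold lower in RECs. Leaving out any 1 library gave −2.95 to −2.52.

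AT1G26380, known as FOX1 and as an oxidase on the route to an indole carbonyl nitrile made in pathogen defence, had the lowest REC to SEC ratio of the fitted family genes. It had 1.73 and 1.40 CPM in RECs, from 22 and 21 counts, and 42.9 and 18.7 CPM in SECs, from 556 and 291 counts. The SEC libraries differed 2.26-fold from each other on the scale of CPM + 0.5. Even so, in CPM the lower of them was over 10 times the higher REC library. The log2 fold change was −4.29 (SE 0.54), and it was −3.58 without SEC replicate 1, which had the higher SEC level, and −4.77 without SEC replicate 2. Its cluster neighbours AT1G26390 and AT1G26420 were low. AT1G26420 had 1.18 and 0.267 CPM for RECs, with 5.40 and 2.18 CPM for SECs, and both REC libraries again lay below both SEC libraries. Its log2 fold change of −2.39 (SE 0.96) ranged from −3.74 to −1.61 on leaving out 1 library. AT1G26390 had 0 counts in both REC libraries and in SEC replicate 1, and 46 counts (2.95 CPM) in SEC replicate 2. With the REC group put at a floor of 3 counts, the summed count of AT1G26390 was 14.9-fold higher in SECs. The exact 95% interval of the ratio of summed counts, SEC over REC, had a lower limit of 11.6. Both values rest on 1 library, and without SEC replicate 2 the gene had no count at all.

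AT1G30700 lay in another cluster on chromosome 1, and no substrate is stated for it here. It had 14.0 and 16.3 CPM for RECs, with 144 and 128 CPM for SECs. The libraries of each group lay close together, with means of 15.1 ± 1.63 (RECs) and 136 ± 11.1 CPM (SECs) (SD, n = 2 each). The log2 fold change was −3.16 (SE 0.23), and −3.27 to −3.03 on leaving out any 1 library. AT1G30720 and AT1G30730, 2 genes of the same cluster whose coding sequences are 85.1% identical, did not share that contrast. AT1G30720 had 17.6 and 13.7 CPM for RECs, with 32.0 and 15.1 CPM for SECs, and the groups overlapped. Its log2 fold change of −0.59 (SE 0.42) turned to 0.05 without SEC replicate 1. AT1G30730 had 17.7 and 16.1 CPM for RECs, with 24.4 and 5.84 CPM for SECs, so the REC values lay between the SEC values. Its log2 fold change was 0.17 (SE 0.66), 1.53 without SEC replicate 1 and −0.51 without SEC replicate 2. For these 2 genes the direction is set by the choice of SEC library.

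Of the listed genes higher in RECs, AT5G44400 was the abundant one. It had 113 and 127 CPM for RECs, with 48.3 and 75.4 CPM for SECs, so both REC libraries lay above both SEC libraries. The log2 fold change was 0.96 (SE 0.28), between 0.67 and 1.33 on leaving out any 1 library. AT2G34790 (MEE23), an oxidase of monolignol alcohols, the building blocks of lignin, had 7 and 21 counts in the REC libraries, against 0 and 1 in the SEC libraries. The ratio of summed counts, REC over SEC, was 28.8 with an exact 95% interval of 4.76 to 1178, which covers counting error only. At these counts the size of the difference is poorly known. AT2G08685 and AT2G34780 lie on the strand opposite to AT2G34790 and cover 538 and 65 of its 1918 exonic nucleotides, where reads of the opposite strands cannot be told apart either.

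**Figure D2:**
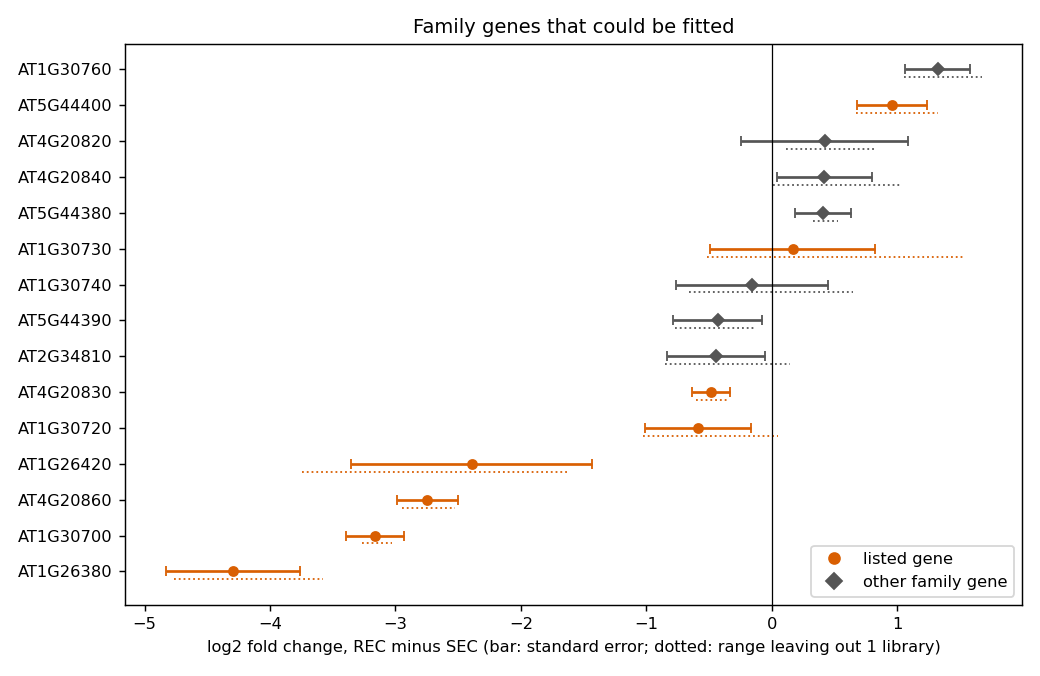
Log2 fold change, REC minus SEC, of the 15 family genes that passed the filter on low counts, in order of size; orange circles are listed genes, grey diamonds the other family genes, bars are ± 1 SE and dotted lines span the values on leaving out each library in turn. The 4 lowest values, from −4.29 to −2.39, are all listed genes, and the highest, 1.33, is AT1G30760, which is not listed.

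Across the 10 genes, both REC libraries were below both SEC libraries in 5 of the 8 that could be fitted and above them in 1. Of all 18384 genes tested, 28.2% had both REC libraries below, 29.8% had them above, and 58% did 1 or the other. With the edgeR quasi-likelihood test over all genes, 3 of the 8 fitted genes (AT1G26380, AT1G30700 and AT4G20860) were past an adjusted p of 0.05 and higher in SECs, and 0 were higher in RECs. Of all genes tested, 0.495% were called higher in RECs, 2.18% higher in SECs and 2.67% in either direction. Since the genes were listed with this contrast known, nothing is read from these counts. AT1G26390 and AT2G34790 did not pass the filter on low counts, AT1G26390 with all its counts in 1 library, and they entered only the fits by DESeq2, with no filter and on leaving out some of the single libraries.

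Among the other 17 family genes, 0 of the 7 fitted passed by edgeR in either direction, and AT1G30760 came nearest. AT1G30760 oxidises monolignols like AT2G34790, to which its coding sequence is 79.6% identical. It had 226 and 224 CPM for RECs, with 71.2 and 109 CPM for SECs (adjusted p = 0.064 by edgeR, log2 fold change 1.33, SE 0.26). It also missed the threshold with RLE factors (0.0649), upper-quartile factors (0.0603), limma voom (0.0596) and without REC replicate 1 (0.409) or REC replicate 2 (0.322). It passed without SEC replicate 1 (7.1e-06) or SEC replicate 2 (2.67e-09), by DESeq2 (adjusted p = 0.000476), with no filter on low counts (0.0336), with a replicate block (0.00838) and with the length trend removed (0.0189). Its log2 fold change lay between 1.05 and 1.67 in every alternative tried. AT5G44380 had 37.6 and 42.5 CPM for RECs, with 30.3 and 30.0 CPM for SECs (adjusted p = 0.342 by edgeR, log2 fold change 0.41). AT4G20840, like AT4G20830 an oligogalacturonide oxidase gene, had 34.5 and 37.8 CPM for RECs, with 18.0 and 36.0 CPM for SECs (adjusted p = 0.557 by edgeR, log2 fold change 0.42), so its REC values overlapped the higher SEC value. The other 4 fitted genes, AT1G30740, AT2G34810, AT4G20820 and AT5G44390, had log2 fold changes from −0.44 to 0.42. Before the filter 13 of the 17 had a count in at least 1 library. AT5G44440 had 0 and 3 counts for RECs, with 0 and 21 for SECs, and AT5G44410, AT1G01980, AT1G11770 and AT1G30710 had at most 14 counts in any library. AT1G26400, AT1G34575, AT4G20800 and AT5G44360 had 0 counts in all 4 libraries, which allows up to 0.0533 CPM for each.

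Summed over the 27 genes, the family stood at 2231 and 2381 CPM for RECs, with 3385 and 2896 CPM for SECs. Without AT4G20830 the sums were 523 and 550 CPM for RECs, with 679 and 649 CPM for SECs. The 9 listed genes other than AT4G20830 summed to 192 and 211 CPM for RECs, with 508 and 439 CPM for SECs. The 17 unlisted genes, of which AT1G30760 had the highest level in each library, summed to 331 and 339 CPM for RECs, with 171 and 210 CPM for SECs. The listed and the unlisted sums thus differed in opposite directions between the groups, which the choice of the list bears on. Most of the difference in the unlisted sum is that of AT1G30760, with 226 and 224 CPM for RECs and 71.2 and 109 CPM for SECs.

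Per kilobase of exon the order of the genes differed between the cell types below the top. AT4G20830 led in both, at a mean of 804 CPM per kb in RECs and 1126 CPM per kb in SECs. In RECs AT1G30760 (117 CPM per kb) and AT5G44400 (59.6 CPM per kb) came next, then AT5G44380 (20.5), AT4G20840 (18.5) and AT4G20860 (16.3), each of which overlapped its neighbour in that order over the REC libraries. In SECs AT4G20860 (109 CPM per kb) and AT1G30700 (66.5 CPM per kb) came next, and their single libraries did not overlap with each other. They were followed by AT1G30760 (46.6 CPM per kb) and AT5G44400 (30.7 CPM per kb), whose SEC libraries overlapped. AT1G30700 ranked 10 of 27 in RECs and 3 of 27 in SECs, and AT1G26380 ranked 14 in RECs and 6 in SECs.

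**Figure D3:**
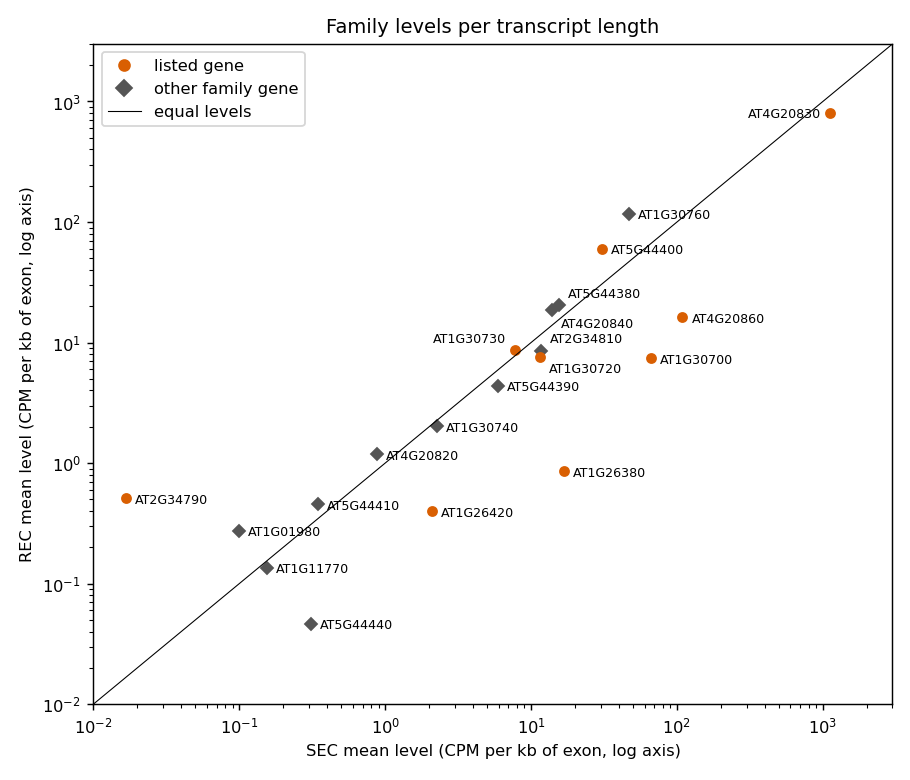
Mean level per kb of exon in RECs (vertical) against SECs (horizontal), both on log axes, for the 20 family genes with a count in both groups; orange circles are listed genes, grey diamonds other family genes, and the line marks equal levels. Furthest below the line are AT4G20860, AT1G30700, AT1G26380, AT1G26420 and the unlisted AT5G44440, and AT2G34790 lies far above it. AT5G44440 rests on few counts, 0 and 3 for RECs with 0 and 21 for SECs.

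Most family genes lie in clusters, 5 with 2 or more genes, and the fold changes within a cluster were not all alike. The 5 genes from AT1G26380 to AT1G26420 were 85.5% to 87.6% identical in coding sequence, and their summed level was 2.91 and 1.67 CPM for RECs, with 48.7 and 24.3 CPM for SECs. In that cluster AT1G26410, not listed, had 0 counts in RECs and 5 and 7 counts in SECs. The 6 genes from AT1G30700 to AT1G30760 were far less alike: AT1G30700 shared 61.9% to 65.7% with the other 5. Their summed level was 279 and 274 CPM for RECs, with 277 and 260 CPM for SECs. The means of AT1G30700 and AT1G30760 within it went opposite ways. AT4G20830 and AT4G20840, adjoining genes 86.4% identical, had log2 fold changes of −0.49 (SE 0.15) and 0.42 (SE 0.38). For AT4G20840 the groups overlapped, and the value fell to 0.007 without SEC replicate 1, so a difference in direction between these genes is not settled. Reads with more than one alignment were left out of the counts, so near-identical stretches can lower a gene's count. Of the 10 listed genes 7 shared no run of 50 bases with any other annotated transcript outside overlapping genes, the highest share was 1.86% of such runs (AT1G26390), and 0 shared a run of 100 bases.

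**Figure D4:**
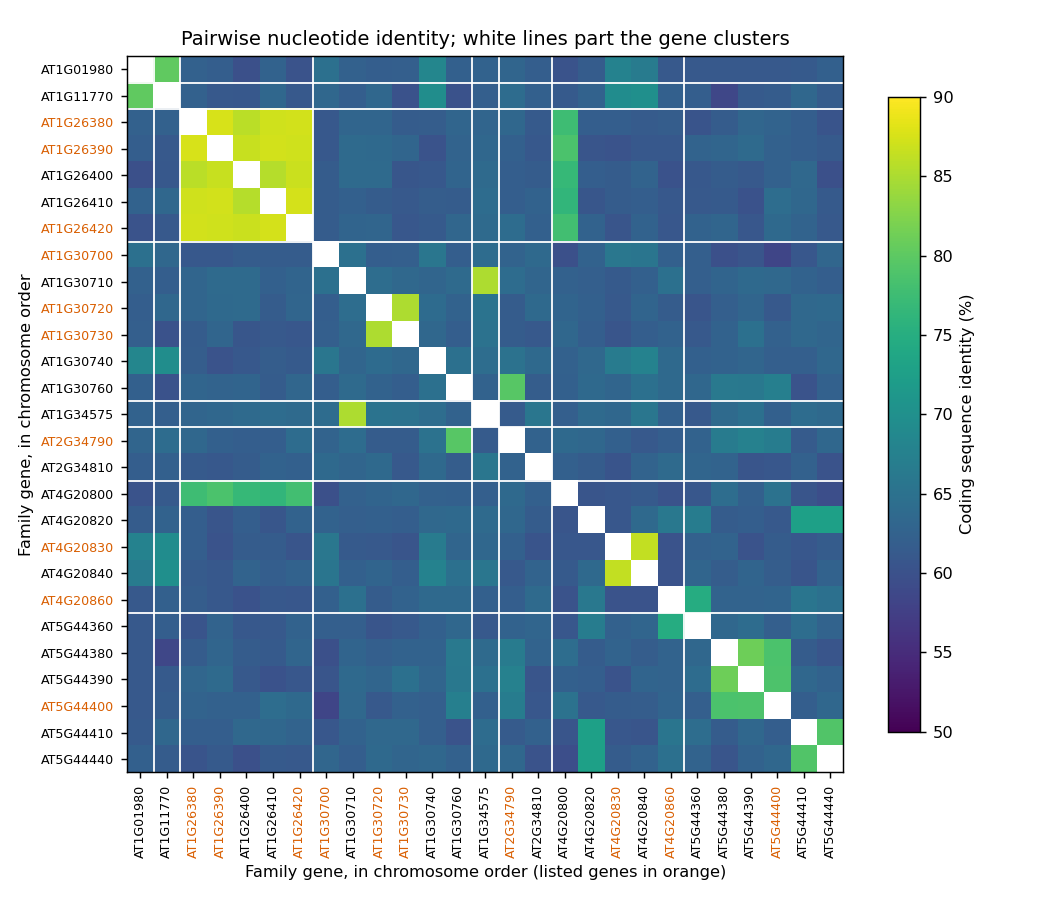
Nucleotide identity of the coding sequences of the 27 family genes in percent, in chromosome order on both axes, with white lines between clusters and listed genes in orange. The block from AT1G26380 to AT1G26420 stands at 85.5% or more, and AT1G30700 shows no close relative, at 65.9% to its nearest, AT4G20830.

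Genes whose profile over the 4 libraries lay nearest to that of a listed gene were sought among 11590 genes averaging 10 CPM or more, by Euclidean distance of log2(CPM + 0.5) centred on each gene's mean. Nearest to AT1G26380 were AT3G13950, an ankyrin protein gene (distance 0.27, 1.96 and 2.07 CPM for RECs, with 48.9 and 25.5 CPM for SECs), MAPKKK19 (0.28), RAV2 (0.36), AT4G15610 (0.38) and the zinc finger gene ZAT11 (0.41). Nearest to AT4G20830, the most abundant, were RIE1 (0.01), BIM2 (0.04), AT1G06650 (0.04), AT3G52920 (0.05) and AT1G30070 (0.05). With 4 libraries such distances describe likeness only.

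Pathways in which these enzymes act were listed too, and their genes were tested in the same fit over all genes. These lists were also chosen with earlier results of these data known, so their calls and medians are a description. Of all genes tested, 2.18% were called higher in SECs and 0.495% higher in RECs. By edgeR 7 of 19 monolignol genes passed as higher in SECs and 0 as higher in RECs, with a median log2 fold change of −1.02 against 0.02 for all genes tested. The ligase gene 4CL1 had 71.4 and 71.9 CPM for RECs, with 386 and 443 CPM for SECs, 5.78-fold lower in RECs, and the acyltransferase gene HCT was 3.34-fold lower. PAL1 and C4H, which open the route, and 4CL3 also passed, at adjusted p of 0.0450, 0.0392 and 0.0380 by edgeR, and no alternatives were computed for them. CCoAOMT1, a methyltransferase gene, and CAD5, which encodes the dehydrogenase that makes the alcohols the oxidases use, were 2.09-fold and 2.12-fold lower. Calls for HCT, CCoAOMT1 and CAD5 were lost without either REC library, when only the SEC pair gives a spread. Those for CCoAOMT1 (0.0502) and CAD5 (0.0636) were also lost with upper-quartile factors, and that for CAD5 by limma voom (0.0506). AT2G34790 and AT1G30760 stood on the other side, with higher levels in RECs, but AT1G30760 did not pass in that fit and AT2G34790 was not in it.

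Of 7 tested genes of indole cyanogenic and camalexin synthesis, 1 passed as higher in SECs and the other 6 missed the threshold (median log2 fold change −0.81). It was GSTF6, a glutathione S-transferase gene, at 11.3 and 14.3 CPM for RECs, with 386 and 155 CPM for SECs (adjusted p = 0.0329 by edgeR, log2 fold change −4.40, SE 0.52). Like AT1G26380 it was higher in SEC replicate 1, and its log2 fold change was −3.59 without that library. GGP1, a glutamyl peptidase gene, had 1109 and 1055 CPM for RECs, with 2225 and 1769 CPM for SECs (adjusted p = 0.061). CYP82C2, which acts after AT1G26380 on that route, had 0 counts in all 4 libraries. CYP71A12, which acts before it, had 3.77 and 3.60 CPM for RECs, with 4.86 and 3.98 CPM for SECs (adjusted p = 0.773 by edgeR).

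Of 12 tested genes that respond to elicitors, 1 passed as higher in SECs and 11 missed the threshold (median −0.996, the same with CYP81F2, at 0 counts in RECs, put at its bound). WRKY33, a transcription factor of camalexin induction, had 320 and 369 CPM for RECs, with 712 and 679 CPM for SECs (adjusted p = 0.0499 by edgeR, log2 fold change −1.01, SE 0.17). That call was lost with upper-quartile factors (0.0633) and without REC replicate 1 (0.608) or REC replicate 2 (0.348). ZAT12, a stress zinc finger gene, had 318 and 302 CPM for RECs, with 565 and 497 CPM for SECs (adjusted p = 0.0755). RNA of both groups came from protoplasts, and the part of their preparation in the level of such genes was not tested.

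Of 10 tested genes of wall fragment sensing, which include the receptor kinase genes WAK1 and WAK2 and the polygalacturonase inhibitor genes PGIP1 and PGIP2, 0 passed by edgeR in either direction (median 0.33). PGIP2 had 333 and 323 CPM for RECs, with 297 and 213 CPM for SECs (adjusted p = 0.385), and it passed with the length trend removed (0.0484) and without SEC replicate 1 (0.000203). GRP3, a gene for a glycine-rich protein that binds WAK1, had 427 and 370 CPM for RECs, with 637 and 265 CPM for SECs (adjusted p = 0.836). Of 9 genes that make or use hydrogen peroxide, PRX34 passed as higher in SECs and 8 missed the threshold (median −0.11). PRX34, a wall peroxidase gene, had 131 and 132 CPM for RECs, with 398 and 314 CPM for SECs (adjusted p = 0.0383 by edgeR, log2 fold change −1.44, SE 0.20). The call was lost with upper-quartile factors (0.0505) and without either REC library (0.323 and 0.223). The catalase gene CAT3 had 1097 and 1107 CPM for RECs, with 1226 and 1475 CPM for SECs (adjusted p = 0.334), and the ascorbate peroxidase gene APX1 had 682 and 669 CPM for RECs, with 676 and 706 CPM for SECs (adjusted p = 0.921).

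**Figure D5:**
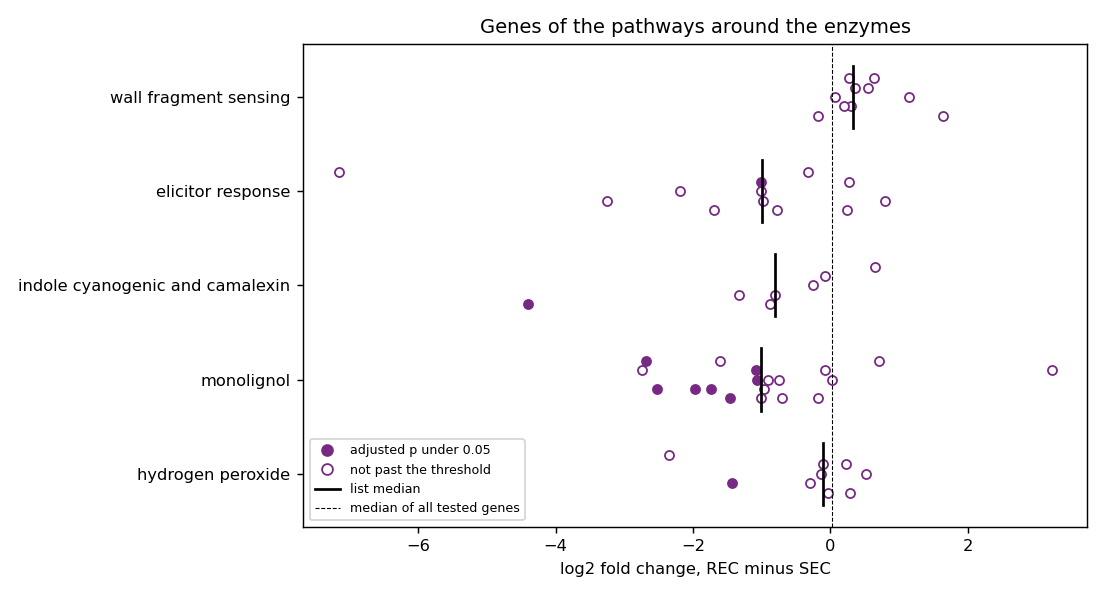
Log2 fold change, REC minus SEC, of each tested gene of 5 lists; filled points passed an adjusted p of 0.05, thick lines are list medians and the dashed line is the median of all genes tested, 0.02. The filled points all lie left of 0, 7 of them in the monolignol list, and the leftmost open point is CYP81F2, whose fitted size is no bound because its REC count is 0.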

How the data were processed

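PolyA RNA of sorted protoplasts was amplified as cDNA over 18 cycles with the SMART-Seq V4 kit and made into libraries with a kit that does not mark strand, per the labels' protocols. Each deposited file holds the authors' raw counts, 1 number per locus. The submitters' processing notes name HTSeq 0.6.1, TopHat2 2.0.9, Trimmomatic 0.32.3, Picard 1.119, bcl2fastq 1.8.4, FastQC 0.11.2 and DESeq2 (no roles given), and build TAIR10. The sources used here give no annotation or strand setting. Closing lines that name no gene held 53.5% to 54.7% of records per library and were left out. Records in no annotated feature made up 46.8% to 47.7%, and those with more than one alignment 5.64% to 7.48%. Why so many fell in no feature was not tested. Without molecular identifiers, intervals and the floor of 3 counts cover counting error only.

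The test was that of edgeR 4.0.16 under R 4.3.3 (TMM, filterByExpr, quasi-likelihood F test, group as the only term, two-sided, Benjamini-Hochberg threshold 0.05). The alternatives used DESeq2 1.42.0, limma 3.58.1 and others given in the closing section. Because separate plants are not stated, p-values here measure only how these samples spread, possibly for technical reasons. The listed genes and all lists were chosen with earlier results of these data known. The rule for named genes takes all 27 family genes, up to 3 called genes and the 2 most abundant of each other list, 5 nearest profiles to each of 2 listed genes, and sort markers; other list genes named were chosen after their values were seen. The steps were tested on simulated data. RefSeq TAIR10.1 matched 32835 of 33602 genes by locus and gave names, exon lengths, coding sequences (aligned with Biopython 1.88) and upstream sequences.

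Groups and replicate numbers come from the sample titles. Neither pair of replicates was within sampling noise (chi-square per gene 5.39 in RECs and 70.8 in SECs).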

Additional observations from a re-analysis of the deposited data

How the results depend on the processing

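Genes called higher in RECs and in SECs numbered 91 and 400, and RECs took 18.5% of the calls. With RLE size factors the counts were 91 and 403 and with limma voom 91 and 321. They were 87 and 254 with upper-quartile factors, 714 and 1501 by DESeq2, 280 and 836 with no filter, and 716 and 1668 with the length trend removed, and the REC share was 25.5%, 32.2%, 25.1% and 30.0% in the same order. Upper-quartile factors moved the median of all genes from 0.02 to 0.12 on the log2 scale. Leaving out 1 library gave 28 to 5630 calls higher in RECs and 86 to 4991 higher in SECs: without a REC library the SEC pair alone sets the spread, and without a SEC library the REC pair does. The excess of calls higher in SECs did not hold in every fit: without SEC replicate 2 more genes were called higher in RECs than in SECs. With a replicate block there were 526 and 1161 calls, a REC share of 31.2%. No pairing is stated for the replicate numbers, and the replicate difference in RECs and in SECs correlated at only 0.0459 over genes. Such a correlation cannot settle pairing, because a difference particular to the SEC pair, such as its length trend, could hide a shared one. Causes were not otherwise tested.

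Of the 8 fitted listed genes, all but AT1G30720 and AT1G30730 kept the sign of the log2 fold change in all 11 alternatives. AT1G26380, AT1G30700 and AT4G20860 stayed at −2.52 or lower in each. The 3 calls among the listed genes were 2 by limma voom, and DESeq2 and the removal of the length trend each added 1 higher in RECs. The number of calls also changed on leaving out REC replicate 1 or either SEC library, when a single pair sets the spread. Nothing is read from these calls either, because the genes were listed with the contrast known. Among other named genes, values that turned were 0.0403 for AT1G30740 by limma voom, 0.0618 and 0.00737 for APX1 with upper-quartile factors and with no filter, and 0.0729 for GRP3 with the length trend removed. On leaving out 1 library, AT1G30740 ran from −0.663 to 0.648, AT2G34810 from −0.850 to 0.146, GRP3 from −0.665 to 0.586, APX1 from −0.0630 to 0.0120 and QRT2 from −0.389 to 0.221. AT2G34790 rests on 28 counts in RECs and 1 in SECs, and AT1G26390 on 1 library, so the size of either difference is poorly known.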

Other observations

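The listed genes differed among themselves in how far the SEC libraries lay apart, which the comparison of groups does not show. Of the 8 fitted listed genes 4 differed over 2-fold between the SEC replicates, against 23.3% of all genes tested. AT1G30730 was 3.93-fold, AT1G26380 2.26-fold, AT1G26420 2.20-fold and AT1G30720 2.08-fold higher in SEC replicate 1 than in SEC replicate 2, on the scale of CPM + 0.5. AT5G44400 was 1.56-fold higher in SEC replicate 2, and AT4G20830, AT4G20860 and AT1G30700 lay closer together, at 1.20-fold for AT4G20830 and less for the other two. AT1G26390 went against its nearest relative: its 46 counts were all in SEC replicate 2, whereas AT1G26380, 87.6% identical in coding sequence, had 556 counts in SEC replicate 1 and 291 in SEC replicate 2. AT1G26390 shares 1.86% of its runs of 50 bases with AT1G26400 and AT1G26410 and 0 with AT1G26380.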
